A study of Homo sapiens with 12 samples.

Results

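The genes described here are 8 genes that are altered again and again in pancreatic carcinoma or that are commonly lost or gained beside such a gene: *NRAS*, *HRAS*, *CDKN2A*, *CDKN2B*, *MTAP*, *SMAD4*, *ARID1A* and *MYC*. They were chosen by gene symbol, and all 8 were found among the 23346 genes of the expression table. The RNA was sequenced in 12 samples from SW1990 and CFPAC-1, a pair of established human pancreatic adenocarcinoma lines. GCTM-5 is an antibody to a surface antigen that the paper reports in ductal progenitors of foetal pancreas and liver and in pancreatic carcinoma. In non-malignant adult pancreas the paper found it mainly on some cells of the interlobular ducts. Cells of each line were labelled with this antibody and sorted. Gates were set on the most strongly labelled cells (GCTM-5 positive) and on the unlabelled cells (GCTM-5 negative). There were thus 4 groups of 3 samples: SW1990 GCTM-5 negative, SW1990 GCTM-5 positive, CFPAC-1 GCTM-5 negative and CFPAC-1 GCTM-5 positive. No gene was altered and no drug was given in any group, and all cells were grown in monolayer culture with serum. The 3 samples of a group were repeated sorts of 1 line, and no source used here says whether they came from separate cultures, so p-values measure only the spread between these samples, which may be technical. Each line stands for 1 tumour, and nothing that differs between the lines can be assigned to a wider class of tumours.

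Pancreatic duct carcinoma arises through activation of the RAS pathway together with loss of tumour suppressors. RAS proteins pass signals from growth factor receptors to the kinase cascade that ends in ERK. *CDKN2A* encodes the inhibitors INK4A, which holds CDK4 and CDK6 in check, and ARF, which blocks the ubiquitin ligase MDM2, and its neighbour *CDKN2B* encodes a related inhibitor that is induced by TGF-beta. *SMAD4* is the shared partner of the SMAD proteins that carry TGF-beta and BMP signals to the nucleus, *ARID1A* is a DNA-binding subunit of the BAF chromatin remodelling complex, and *MYC* is a transcription factor that drives ribosome production and growth. *MTAP*, an enzyme that recycles methionine from a by-product of polyamine synthesis, is no suppressor of that kind, but lies next to *CDKN2A* and is often deleted with it.

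Values are RPKM, read counts scaled by the length of the gene and by the size of the library. They hold no further scaling between samples, and results that changed when each sample was centred on its median are named below. The libraries held between 9969697 reads (CFPAC-1 GCTM-5 positive replicate 3) and 26159330 reads (CFPAC-1 GCTM-5 positive replicate 1). Each of 6 markers of duct epithelium was at 1 RPKM or more in all 4 groups, with sums from 1595 to 1942 in SW1990 GCTM-5 negative samples and from 4360 to 8162 in the others. The 5 acinar and 4 endocrine markers summed to at most 0.295 RPKM in any sample. The 6 fibroblast markers summed to between 12.7 and 22.6 RPKM in SW1990 GCTM-5 negative samples and to between 1.26 and 4.86 in the other samples. Most of the former sum was *LUM* (mean 13.2 RPKM), followed by *COL1A1* (3.57) and *PDGFRB* (1.76). *COL1A2*, *COL3A1* and *DCN* had at most 5 reads in any library. Of the leukocyte markers, *PTPRC* and *CD3E* had at most 3 reads in any library, whereas the group means of *CD14* ran from 0.287 to 9.23 RPKM and those of *CD68* from 21.7 to 138 RPKM. The endothelial marker *CDH5* was at 15.6 RPKM in SW1990 GCTM-5 negative cells and at 1.33 in positive cells, whereas *KDR* had 0 reads in the former and at most 2 in the latter. The part of these markers in the differences within SW1990 was not tested.

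The largest contrast among the 8 genes lay between the lines, and it was an absence of reads. *CDKN2A* and *CDKN2B* had no reads in any of the 6 SW1990 samples, and *SMAD4* had none in any of the 6 CFPAC-1 samples. In both lines the absence held for GCTM-5 negative and positive cells alike. RNA reads do not measure DNA, so that a deleted gene and an intact gene that is not transcribed cannot be told apart here.

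**Figure D1:**
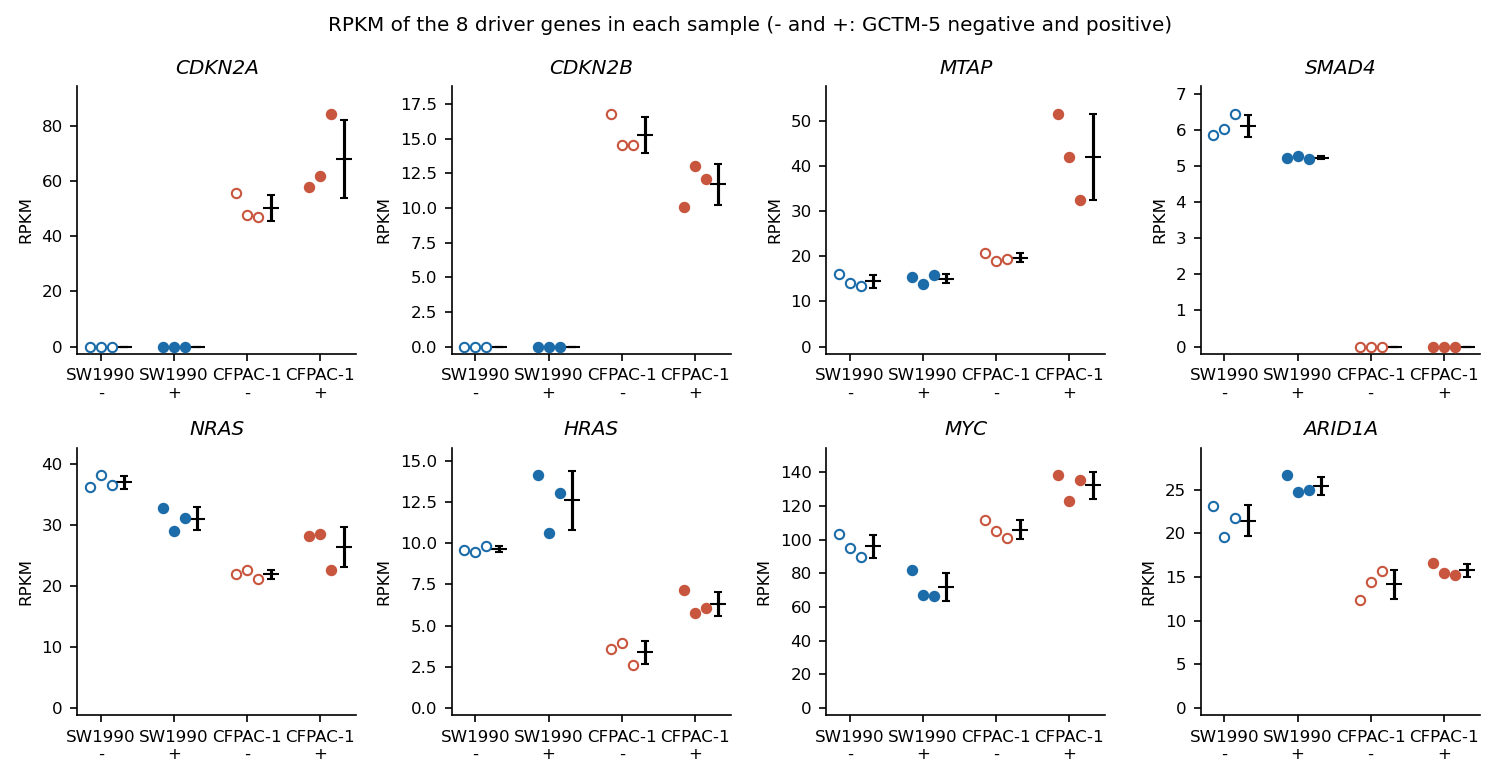
RPKM of each of the 8 genes in each of the 12 samples, on a linear vertical axis from 0 for each gene, for SW1990 (blue) and CFPAC-1 (red), GCTM-5 negative (open) and positive (filled). Points are samples and the bars beside them are mean ± SD (n = 3); *CDKN2A* and *CDKN2B* lie at 0 in all SW1990 samples, *SMAD4* lies at 0 in all CFPAC-1 samples, and the other 5 genes are above 0 in all 12 samples.

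The stretches before the transcription starts of these 3 genes are shown because they are where a gene without reads would have to begin its RNA. They were taken from RefSeq on GRCh38.p14 and hold the 250 bases before the start, read 5′ to 3′ on the gene's strand, with each CG dinucleotide in capitals, since CG-rich starts are those that DNA methylation can silence. *CDKN2A* has a pair of starts on the minus strand, the first belonging to the ARF transcript (chr9:21995325-21995574) and the second to the INK4A transcript (chr9:21974858-21975107). *CDKN2B* starts on the same strand (chr9:22009306-22009555), and *SMAD4* starts on the plus strand (chr18:51029963-51030212).

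CDKN2A, ARF start: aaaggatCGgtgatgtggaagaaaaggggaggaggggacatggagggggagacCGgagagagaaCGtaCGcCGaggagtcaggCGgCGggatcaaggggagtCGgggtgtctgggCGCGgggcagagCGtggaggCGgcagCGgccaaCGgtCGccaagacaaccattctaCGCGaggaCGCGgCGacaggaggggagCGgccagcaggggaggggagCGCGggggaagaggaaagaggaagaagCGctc
CDKN2A, INK4A start: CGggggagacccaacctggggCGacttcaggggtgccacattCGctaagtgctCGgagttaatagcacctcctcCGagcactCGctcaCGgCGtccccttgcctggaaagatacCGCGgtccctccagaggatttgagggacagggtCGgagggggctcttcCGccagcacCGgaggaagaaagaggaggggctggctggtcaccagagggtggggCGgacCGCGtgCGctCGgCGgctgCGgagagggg
CDKN2B: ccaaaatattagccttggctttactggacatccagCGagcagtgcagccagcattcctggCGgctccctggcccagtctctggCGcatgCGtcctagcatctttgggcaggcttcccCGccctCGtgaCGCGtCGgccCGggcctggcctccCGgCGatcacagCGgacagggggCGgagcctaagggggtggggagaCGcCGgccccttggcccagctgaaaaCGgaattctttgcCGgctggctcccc
SMAD4: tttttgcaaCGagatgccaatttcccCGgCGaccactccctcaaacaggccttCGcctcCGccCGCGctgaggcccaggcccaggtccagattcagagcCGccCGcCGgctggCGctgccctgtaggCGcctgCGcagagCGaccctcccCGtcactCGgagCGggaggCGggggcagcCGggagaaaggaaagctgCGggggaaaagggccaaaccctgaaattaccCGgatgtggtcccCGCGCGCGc

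The *SMAD4* stretch held 25 CG dinucleotides, a number reached by 21.6% of the 35116 RefSeq promoters of this length, whose median was 11. The ARF start of *CDKN2A* held 24 (reached by 23.7% of promoters), the INK4A start held 20 (32.4%) and *CDKN2B* held 18 (36.8%). *ELAC1*, a neighbour of *SMAD4* that also had no reads in CFPAC-1 (below), held 28 (15.9%). Members with reads in both lines had 32 in *HRAS*, 30 in *ARID1A*, 20 in *NRAS* and 11 in *MTAP*, and *MYC* was not counted. These counts are of the reference genome and so are the same for both lines. They cannot tell a line with reads of a gene from a line without. Methylation of these stretches was not measured.

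*CDKN2A* lies at chr9:21967751-21995300 on the minus strand of GRCh37. In CFPAC-1 GCTM-5 negative cells it was at 55.8, 47.8 and 47.0 RPKM (50.2 ± 4.88, SD, n = 3), and in positive cells at 58.0, 61.7 and 84.3 RPKM (68.0 ± 14.3, SD, n = 3). It was there among the more abundant RNAs, above 92.1% of the 16236 genes fitted in GCTM-5 negative cells and above 94.1% in positive cells. In SW1990 it had 0 reads of 115606266, which allows up to 3 reads per library or 0.0620 to 0.0851 RPKM. On that floor the mean of CFPAC-1, 59.1 RPKM from 1747 to 3152 reads per library, was at least 780-fold higher.

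*CDKN2B* lies 7.6 kb further along, at chr9:22002902-22009304, on the same strand. It was at 16.8, 14.5 and 14.5 RPKM in CFPAC-1 GCTM-5 negative cells (15.3 ± 1.29, SD, n = 3) and at 10.1, 13.0 and 12.1 in positive cells (11.7 ± 1.49, SD, n = 3). Against 0 reads in SW1990, its mean of 13.5 RPKM in CFPAC-1 was at least 341-fold higher. For both genes the samples of the lines did not overlap, and the exact permutation test of 6 samples against 6 gave p = 0.00216 (two-sided), the smallest that it can give. The test was run only for members at the floor in a whole line. With 0 in 1 line and reads throughout the other it could give no other value, so it adds nothing to the read counts.

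The pair differed in CFPAC-1 in how they stood between the sorted cells. All 3 positive samples were above all 3 negative ones for *CDKN2A* and below them for *CDKN2B*, as was the case in one direction or the other for 48.5% of all genes fitted. Neither difference passed the limma test adjusted over all genes: *CDKN2A* gave a log2 difference of 0.42 (SE 0.16, adjusted p = 0.0585) and *CDKN2B* one of -0.39 (SE 0.17, adjusted p = 0.0867). Since the exact zeros of SW1990 enter the spread of that fit, CFPAC-1 was also fitted by itself in limma, where the adjusted p was 0.101 and 0.0602. *CDKN2B*, but not *CDKN2A*, passed when each sample was centred on its median (log2 difference -0.49, limma adjusted p = 0.0434) or quantile normalised (-0.50, limma adjusted p = 0.0329), and both passed with a pseudocount of 1, without the variance trend and with weights for read depth (voom). The ratio of *CDKN2A* to *CDKN2B* was 3.28 ± 0.0455 in GCTM-5 negative and 5.84 ± 1.122 in positive cells (SD, n = 3), without overlap and with an exact permutation p of 0.1, the smallest that 3 samples against 3 can give.

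*MTAP* lies at chr9:21802635-21937650 on the plus strand, 30.1 kb from *CDKN2A*, and it had reads in every sample. It was at 16.1, 13.99 and 13.4 RPKM in SW1990 GCTM-5 negative cells (14.5 ± 1.45, SD, n = 3) and at 15.5, 13.96 and 15.8 in positive cells (15.1 ± 0.976, SD, n = 3). In CFPAC-1 it was at 20.8, 18.9 and 19.5 RPKM in GCTM-5 negative cells (19.7 ± 0.990, SD, n = 3) and at 51.6, 42.1 and 32.5 in positive cells (42.1 ± 9.55, SD, n = 3). The SW1990 groups overlapped, while every CFPAC-1 positive sample was above every other sample of the series.

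*MTAP* was accordingly the member that rose most with GCTM-5 in CFPAC-1, by 1.06 on the log2 scale or 2.09-fold (SE 0.14, limma adjusted p = 0.000241). In SW1990 the difference was 0.06 (SE 0.14, 95% confidence interval -0.25 to 0.37, limma adjusted p = 0.813). The change differed between the lines (SW1990 minus CFPAC-1 -1.01, SE 0.20, limma adjusted p = 0.00339). These calls held in every alternative that was fitted, with the rise in CFPAC-1 between 0.91 and 1.24. *MTAP* was lower in SW1990 than in CFPAC-1 in GCTM-5 negative cells (log2 difference -0.45, limma adjusted p = 0.0148) and in positive cells (-1.45, adjusted p = 3.36e-06).

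The genes around *CDKN2A* and *CDKN2B* had reads in SW1990. On one side *MTAP* had 1163 to 1631 reads per SW1990 library. On the other side the next gene placed on GRCh37, *DMRTA1*, a transcription factor of the DMRT family 437.5 kb beyond *CDKN2B*, had 66 to 150 reads. *CDKN2B-AS1*, the antisense RNA at chr9:21994138-22128102 that runs over the whole of *CDKN2B* on the other strand, had 34 to 63 reads in SW1990 libraries and 28 to 96 in CFPAC-1 libraries.

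The stretch without reads in SW1990 was thus bounded by *MTAP* and *DMRTA1*, with *CDKN2B-AS1*, which spans part of it, above 0. Whether strand was used in counting is not stated in the sources used here, so that reads of *CDKN2B-AS1* and of the genes it overlaps may not be fully separated. *C9orf53*, a small gene of this cluster under an older name, had 0 reads in SW1990 but only 1 to 6 in CFPAC-1, which is too few to compare. Beyond *DMRTA1*, *ELAVL2* had 0 reads in SW1990 and 1 to 61 in CFPAC-1. On the telomere side of *MTAP* lay genes with the opposite contrast. *PTPLAD2* had 42 to 103 reads in SW1990 and at most 3 in CFPAC-1. The interferon gene *IFNB1* had 4 to 7 and at most 1, again too few to compare. *IFNE*, an epithelial interferon 320.3 kb from *MTAP*, was at 4.36 ± 1.43 RPKM in SW1990 GCTM-5 negative and 1.37 ± 0.0765 in CFPAC-1 GCTM-5 negative cells (SD, n = 3). *MIR31HG*, the host transcript of a microRNA, was at 26.1 ± 0.701 and 2.97 ± 0.660 RPKM in the same groups.

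**Figure D2:**
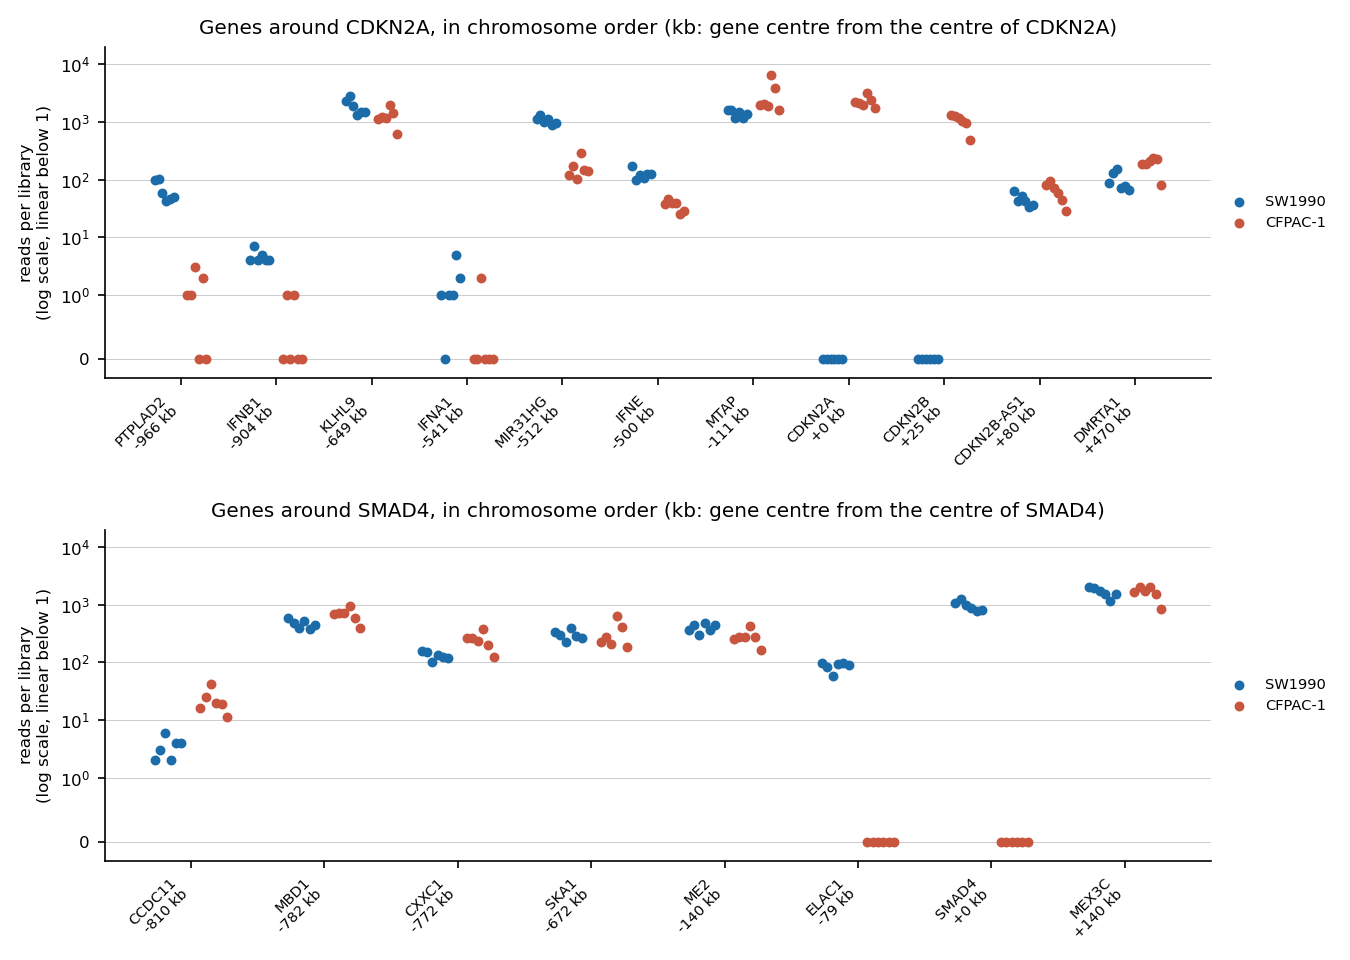
Reads per library (vertical axis, log scale with a linear part below 1) of the genes around *CDKN2A* (top) and *SMAD4* (bottom) in the 6 SW1990 (blue) and 6 CFPAC-1 (red) libraries, each point being a library and genes with at most 3 reads in all libraries being left out. Labels give the distance of each gene's centre in kb; *CDKN2A* and *CDKN2B* are at 0 in SW1990 between *MTAP* and *DMRTA1*, and *ELAC1* and *SMAD4* are at 0 in CFPAC-1 between *ME2* and *MEX3C*.

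*SMAD4* lies at chr18:48554898-48611415 on the plus strand of GRCh37. In SW1990 it was at 5.86, 6.01 and 6.44 RPKM in GCTM-5 negative cells (6.10 ± 0.301, SD, n = 3) and at 5.22, 5.28 and 5.1998 in positive cells (5.23 ± 0.0417, SD, n = 3). In CFPAC-1 it had 0 reads of 116172054, which allows up to 3 reads per library or 0.0131 to 0.0343 RPKM. The mean of SW1990, 5.67 RPKM from 786 to 1228 reads per library, was at least 293-fold higher. The exact permutation test of 6 samples against 6 gave p = 0.00216 (two-sided), again the only value it could give with 0 throughout 1 line.

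The 3 GCTM-5 positive samples of SW1990 were all below the 3 negative ones for *SMAD4*, as non-overlap in either direction was seen for 43.3% of all genes fitted. The log2 difference was -0.22 (SE 0.17, limma adjusted p = 0.378) with all samples in the fit and had an adjusted p of 0.103 with SW1990 fitted by itself in limma, so that a fall was not shown.

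*ELAC1*, which encodes an enzyme that repairs transfer RNA, is the neighbour of *SMAD4* 40.4 kb away at chr18:48494361-48514491. It also had 0 reads in every CFPAC-1 library, against 58 to 97 reads in SW1990 libraries, where its mean was 1.73 ± 0.338 RPKM in GCTM-5 negative and 2.33 ± 0.184 in positive cells (SD, n = 3). The genes on either side had reads in CFPAC-1. *ME2*, a mitochondrial malic enzyme 13.7 kb from *ELAC1*, had 164 to 417 reads per CFPAC-1 library, and *MEX3C*, an RNA-binding ubiquitin ligase 89.5 kb beyond *SMAD4*, had 823 to 2009. The stretch without reads in CFPAC-1 therefore held *ELAC1* and *SMAD4* and ended before *ME2* and *MEX3C*. Of the 20 listed genes of this neighbourhood that were fitted besides *SMAD4*, 14 were lower and 2 higher in SW1990, with a median of -0.74 against 0.12 for all genes, of which 32.6% were lower and 42% higher.

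Genes without any read in one line were rare. Leaving out Y-linked genes and *XIST*, 37 of 11286 genes with at least 50 reads in every CFPAC-1 library (0.328%) had 0 reads in all SW1990 libraries, and 23 of 11681 genes (0.197%) did so the other way round. *CDKN2A* was the fifth and *CDKN2B* the seventh of the 37 by reads in CFPAC-1, and *SMAD4* was the seventh of the 23 by reads in SW1990. Neighbours were sought only among placed genes with at least 50 reads in every library of the line with reads. Genes with fewer reads were passed over, so they can lie between the genes of a pair. Of the 37 genes, 35 could be placed on GRCh37. In this sense 4 of them stood next to another one, namely *CDKN2A* with *CDKN2B* and *TOX3* with *SALL1*. Of 21 placed of the 23 genes, 6 did, namely *SMAD4* with *ELAC1*, *ZNF71* with *ZNF470* and *DLX6* with *DLX6-AS1*. Genes that stood ahead of *CDKN2A* included *LDHB*, a lactate dehydrogenase subunit, and *PEBP1*, a binding partner of RAF kinase, and *CDH11*, a mesenchymal cadherin, led the other list. These further genes were named after their values were seen.

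The genes with reads that accompany the missing inhibitors were described from lists of each pathway. The list of the INK4 and CDK4 pathway held 12 genes, of which 11 were fitted. In CFPAC-1, 6 of the 11 rose with GCTM-5 and 1 fell, with a median of 0.39 on the log2 scale against 0.05 for all genes, of which 22.3% rose and 14.2% fell. In SW1990, which lacked the reads of both inhibitors, 2 rose and 3 fell, with a median of -0.09 against -0.04 for all genes, of which 11.3% rose and 16.9% fell. That median turned to 0.06 without SW1990 GCTM-5 negative replicate 1 and to 0.01 without positive replicate 1.

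*CCND3*, a D-type cyclin that activates CDK4 and CDK6, rose with GCTM-5 in both lines. Its GCTM-5 negative and positive means were 30.2 ± 1.81 and 45.1 ± 2.40 RPKM in SW1990, and 23.4 ± 2.46 and 50.6 ± 3.48 in CFPAC-1 (SD, n = 3). *CDKN2C*, another inhibitor of the INK4 family, fell by 0.92 on the log2 scale in SW1990 (limma adjusted p = 2.40e-05) and rose by 0.39 in CFPAC-1 (adjusted p = 0.00971). *CDK4* rose by 0.75 in CFPAC-1 (limma adjusted p = 8.41e-05), and its difference in SW1990 was -0.22 (adjusted p = 0.0741). *RBL1*, a relative of the retinoblastoma protein, rose by 1.54 in CFPAC-1 (limma adjusted p = 7.47e-05), and its difference in SW1990 was 0.11 (adjusted p = 0.684). *RB1* itself was higher in SW1990, at 25.6 ± 0.704 and 18.2 ± 1.62 RPKM in GCTM-5 negative and positive cells, than in CFPAC-1, at 9.13 ± 0.311 and 10.5 ± 1.39 (SD, n = 3).

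The list around *MTAP* held 15 fitted genes of methionine and polyamine metabolism and of an arginine methyltransferase, *PRMT5*, with its partners *WDR77* and *RIOK1*. Of the 15, 9 rose with GCTM-5 in CFPAC-1, *PRMT5* and *WDR77* among them, and none fell. The median was 0.50 against 0.05 for all genes, of which 22.3% rose and 14.2% fell. In SW1990 3 rose and none fell, where 11.3% of all genes rose and 16.9% fell. The median there was 0.11 against -0.04 for all genes, and it turned to -0.08 without GCTM-5 negative replicate 3. Without CFPAC-1 GCTM-5 positive replicate 3, 4 rose and 1 fell in SW1990. When each sample was centred on its median the counts in CFPAC-1 were 8 that rose and 2 that fell, and 1 fell there without SW1990 positive replicate 1 or 2 or CFPAC-1 positive replicate 2.

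*ADI1* and *ENOPH1*, which act in the steps after *MTAP*, rose in CFPAC-1 by 0.93 (limma adjusted p = 4.66e-05) and 0.96 (adjusted p = 0.000367). *WDR77*, the partner of the arginine methyltransferase that the substrate of *MTAP* inhibits, rose by 1.29 there (limma adjusted p = 0.000356). *GOT1*, a transaminase, rose in both lines, by 0.63 in SW1990 (limma adjusted p = 0.000338) and by 0.58 in CFPAC-1 (adjusted p = 0.000689). *MRI1*, the enzyme that acts directly after *MTAP*, was among the 6 of 15 that did not pass in CFPAC-1 (-0.07, limma adjusted p = 0.756). It was at 13.97 ± 2.53 RPKM in SW1990 and 4.89 ± 0.170 in CFPAC-1 GCTM-5 negative cells (SD, n = 3). Over both kinds of cell 9 of the 15, *MRI1* and *ADI1* among them, were higher in SW1990 and 1 was lower. Of all genes 42% were higher and 32.6% lower.

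The list of receptors, SMADs and corepressors around *SMAD4* held 15 fitted genes. With GCTM-5, 16.9% of all genes fell and 11.3% rose in SW1990, and 14.2% fell and 22.3% rose in CFPAC-1. In SW1990, 10 of the 15 fell with GCTM-5, none rose and 5 did not pass, with a median of -0.55 against -0.04 for all genes, and 8 fell without any one of the 6 SW1990 samples or with each sample centred on its median. In CFPAC-1, 3 fell and 2 rose, with a median of -0.11 against 0.05, and 7 fell without CFPAC-1 GCTM-5 positive replicate 3. Of the 15 genes, the change differed between the lines for 7, all of them lower in SW1990, where 17.8% of all genes were lower. Whether these changes are tied to the reads of *SMAD4* was not tested.

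*SMAD7*, an inhibitory SMAD that TGF-beta induces, went from 4.10 ± 0.229 RPKM down to 0.751 ± 0.148 in SW1990 and was at 7.14 ± 0.328 and 7.11 ± 0.102 in CFPAC-1 (SD, n = 3). Its change differed between the lines by -2.31 (limma adjusted p = 1.13e-05). *SMAD6*, the inhibitory SMAD of the BMP branch, fell by 1.91 on the log2 scale in SW1990 (limma adjusted p = 1.40e-05), with a difference of -0.11 in CFPAC-1 (adjusted p = 0.695). *SKIL*, a corepressor of SMAD complexes, fell in both lines, by 1.54 in SW1990 and by 0.63 in CFPAC-1 (limma adjusted p = 2.49e-06 and 0.00209). *BMPR2*, a BMP receptor, also fell in both, by 1.07 and 0.92 (limma adjusted p = 1.87e-06 and 2.33e-05).

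Among 15 genes known to respond to TGF-beta or BMP, 10 fell and none rose with GCTM-5 in SW1990 (median -0.86). In CFPAC-1, the line without *SMAD4* reads, 9 fell and 2 rose (median -0.63). Of all genes fitted 16.9% fell and 11.3% rose in SW1990, and 14.2% fell and 22.3% rose in CFPAC-1. Without CFPAC-1 GCTM-5 positive replicate 3, 1 rose in SW1990, and without CFPAC-1 negative replicate 1, 6 fell in CFPAC-1. *SMAD7* and *SKIL* are counted in both lists. *ID2*, a BMP-responsive inhibitor of helix-loop-helix factors, fell in SW1990 from 56.1 ± 3.29 to 16.3 ± 1.13 RPKM, and in CFPAC-1 from 94.9 ± 4.50 to 45.6 ± 4.41 RPKM (SD, n = 3). *ID3* of the same family turned between the lines: it fell in SW1990 from 64.2 ± 20.5 to 5.13 ± 1.73 RPKM and rose from 0.297 ± 0.161 to 1.03 ± 0.160 in CFPAC-1, where it was low (SD, n = 3).

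*NRAS* lies at chr1:115247090-115259392 on the minus strand. It was at 36.1, 38.1 and 36.6 RPKM in SW1990 GCTM-5 negative cells (36.95 ± 1.02, SD, n = 3) and at 32.8, 29.1 and 31.2 in positive cells (31.004 ± 1.86, SD, n = 3). In CFPAC-1 it was at 22.0, 22.6 and 21.1 RPKM in GCTM-5 negative cells (21.9 ± 0.748, SD, n = 3) and at 28.2, 28.5 and 22.6 in positive cells (26.4 ± 3.30, SD, n = 3). All SW1990 samples were above all CFPAC-1 samples, and the lowest CFPAC-1 positive value, that of replicate 3 in the shallowest library, lay within the negative samples.

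The level of *NRAS* was 1.41-fold higher in SW1990 than in CFPAC-1 (log2 difference 0.49, SE 0.07, limma adjusted p = 2.75e-05). With GCTM-5 it was lower in SW1990 (log2 difference -0.25, SE 0.10) and higher in CFPAC-1 (0.26, SE 0.10), and neither difference passed the test over all genes (limma adjusted p = 0.0672 and 0.05001). The change nevertheless differed between the lines by -0.51 (SE 0.13, limma adjusted p = 0.0147). Both differences lay close to the threshold. That in SW1990 passed without CFPAC-1 GCTM-5 positive replicate 3 (limma adjusted p = 0.0110), with SW1990 fitted by itself (0.0292) and after quantile normalisation (0.0403). That in CFPAC-1 passed without the same sample (limma adjusted p = 0.00273), with voom (0.0420), with a filter at 1 RPKM (0.0467) and with a pseudocount of 0.01 (0.0493) or 1 (0.04998). The difference of the changes did not pass when samples were centred on their medians (-0.37, limma adjusted p = 0.0983).

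*HRAS* lies at chr11:532242-537321 on the minus strand and was the less abundant of the pair in every sample. It was at 9.62, 9.47 and 9.85 RPKM in SW1990 GCTM-5 negative cells (9.65 ± 0.192, SD, n = 3) and at 14.1, 10.6 and 13.0 in positive cells (12.6 ± 1.78, SD, n = 3). In CFPAC-1 it was at 3.58, 3.97 and 2.60 RPKM in GCTM-5 negative cells (3.38 ± 0.703, SD, n = 3), from only 64 to 107 reads, and at 7.16, 5.74 and 6.10 in positive cells (6.33 ± 0.736, SD, n = 3). Within each line every positive sample was above every negative one, and every SW1990 sample was above every CFPAC-1 sample.

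*HRAS* rose with GCTM-5 in CFPAC-1 by 0.90 on the log2 scale or 1.87-fold (SE 0.16, limma adjusted p = 0.00127). Its difference in SW1990 was 0.37 (SE 0.16, limma adjusted p = 0.108), and the change was not shown to differ between the lines (-0.53, 95% confidence interval -1.02 to -0.03, limma adjusted p = 0.106). Over both kinds of cell it was 2.37-fold higher in SW1990 (log2 difference 1.24, SE 0.11, limma adjusted p = 7.40e-07).

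The ratio of *NRAS* to *HRAS* was 3.83 ± 0.167 in GCTM-5 negative and 2.48 ± 0.219 in positive cells of SW1990, and 6.66 ± 1.29 and 4.202 ± 0.666 in CFPAC-1 (SD, n = 3). In each line the positive samples were all below the negative ones. The exact permutation p was 0.1 in each, the smallest that 3 samples against 3 can give, so that a change of the ratio could not be shown in either line. The sum of both was 46.6 ± 0.908 and 43.6 ± 3.62 RPKM in SW1990 and 25.3 ± 1.45 and 32.7 ± 3.54 in CFPAC-1.

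The regulators and effectors of RAS showed no common direction. Of 27 such genes, 5 rose and 7 fell with GCTM-5 in SW1990 (median 0.00), and 6 rose and 8 fell in CFPAC-1 (median -0.10). Of all genes fitted 11.3% rose and 16.9% fell in SW1990, and 22.3% rose and 14.2% fell in CFPAC-1. *RASA1*, which switches RAS off, rose in SW1990 from 21.9 ± 2.80 to 50.3 ± 3.64 RPKM and fell from 124 ± 7.01 to 61.8 ± 5.52 in CFPAC-1 (SD, n = 3), a difference between the lines of 2.20 (limma adjusted p = 5.25e-06). *MAP2K1*, the kinase that activates ERK, rose in both lines, by 0.77 and 0.52 (limma adjusted p = 2.06e-05 and 0.000600). *ICMT*, which methylates the tail of RAS proteins, rose by 0.36 and 0.61 (limma adjusted p = 0.00397 and 0.000165). *MRAS*, a more distant RAS relative, fell from 6.001 ± 0.253 to 1.30 ± 0.162 RPKM in SW1990 and was near 0.1 RPKM in CFPAC-1.

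Of 17 transcripts that ERK signalling is known to induce, 4 rose and 5 fell in SW1990, where 11.3% of all genes rose and 16.9% fell. The median there was 0.06, but -0.03 without GCTM-5 negative replicate 1 and -0.04 without positive replicate 2. In CFPAC-1 2 rose and 6 fell (median -0.36), where 22.3% of all genes rose and 14.2% fell. *DUSP5*, a phosphatase of ERK, rose by 1.18 in SW1990 and fell by 0.93 in CFPAC-1 (limma adjusted p = 5.06e-05 and 0.000424). *CCND1*, a D-type cyclin, rose in both lines, from 154 ± 13.1 to 206 ± 8.78 RPKM and from 109 ± 5.41 to 173 ± 7.27 (SD, n = 3). *CCND1* is also counted in the INK4 and CDK4 list. *ETV5*, a transcription factor of the ETS family, fell in both, by 1.38 and 0.36 (limma adjusted p = 2.30e-06 and 0.0215). *EPHA4*, an Eph receptor, fell by 2.05 in SW1990 (limma adjusted p = 1.66e-05) and was at 3.01 ± 0.283 and 3.05 ± 0.747 RPKM in CFPAC-1.

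*MYC*, which lies on chromosome 8, was the most abundant of the 8 RNAs in every group. It was at 103, 94.98 and 89.6 RPKM in SW1990 GCTM-5 negative cells (96.0 ± 7.02, SD, n = 3) and at 81.7, 67.3 and 66.7 in positive cells (71.9 ± 8.53, SD, n = 3). In CFPAC-1 it was at 112, 105 and 101 RPKM in GCTM-5 negative cells (106 ± 5.50, SD, n = 3) and at 138, 123 and 136 in positive cells (132 ± 8.18, SD, n = 3). Every SW1990 positive sample was thus below every other sample and every CFPAC-1 positive sample above every other, while the negative samples of the lines overlapped.

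*MYC* was the member that changed in both lines, and it did so in opposite directions. It fell by 0.42 on the log2 scale in SW1990, which is 1.34-fold (SE 0.10, limma adjusted p = 0.00664), and rose by 0.32 in CFPAC-1, which is 1.25-fold (SE 0.10, limma adjusted p = 0.0242). The change differed between the lines by -0.74 (SE 0.14, limma adjusted p = 0.00219). The fall in SW1990 and the difference passed in every alternative fitted at this threshold, but the rise in CFPAC-1 did not pass when samples were centred on their medians (0.22, limma adjusted p = 0.109) or quantile normalised (0.28, limma adjusted p = 0.0520). Nor did it pass without CFPAC-1 GCTM-5 negative replicate 2 (adjusted p = 0.0668), negative replicate 3 (0.0885) or positive replicate 1 (0.0774), all in limma.

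Between the lines *MYC* was lower in SW1990 in GCTM-5 positive cells (log2 difference -0.88, limma adjusted p = 8.58e-06), and the difference in negative cells was -0.14 (95% confidence interval -0.36 to 0.07, adjusted p = 0.208).

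Of 23 fitted targets of MYC, 18 rose with GCTM-5 in CFPAC-1, none fell and 5 did not pass (median 0.76 against 0.05 for all genes). In SW1990 4 rose, none fell and 19 did not pass (median 0.23 against -0.04). Of all genes fitted 22.3% rose and 14.2% fell in CFPAC-1, and 11.3% rose and 16.9% fell in SW1990. Among the targets *CDK4*, *ODC1* and *SRM* are also counted in the lists above. The count in SW1990 rested on single libraries: it was 1 without GCTM-5 negative replicate 3 or positive replicate 1, 2 without negative replicate 2 or positive replicate 3, and 7 without positive replicate 2, while without CFPAC-1 GCTM-5 positive replicate 3 it was 5, with 1 that fell. *NME1*, a nucleoside diphosphate kinase, rose from 43.3 ± 1.82 to 129 ± 12.5 RPKM in CFPAC-1, with 67.1 ± 14.3 and 78.6 ± 17.9 in SW1990 (SD, n = 3). *TFRC*, the transferrin receptor, rose by 1.23 in CFPAC-1 (limma adjusted p = 4.87e-05), and its difference in SW1990 was 0.09 (adjusted p = 0.671). *CAD*, the enzyme that opens pyrimidine synthesis, rose by 1.06 (limma adjusted p = 0.000315), with -0.08 in SW1990 (adjusted p = 0.748).

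Between the lines, over both kinds of cell, 15 of the 23 targets were higher and 2 lower in SW1990 (median 0.78 against 0.12), where 42% of all genes were higher and 32.6% lower. *NOP2*, a methylase of ribosomal RNA, was at 22.5 ± 5.15 RPKM in SW1990 and 4.23 ± 0.362 in CFPAC-1 GCTM-5 negative cells (SD, n = 3). *POLR1B*, a subunit of RNA polymerase I, was at 13.5 ± 1.45 and 5.02 ± 0.148 RPKM in the same groups.

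Of 14 proliferation genes, listed as a measure of cell division, 13 rose with GCTM-5 in CFPAC-1 and none fell (median 1.30). In SW1990 6 rose and none fell (median 0.44). Of all genes fitted 22.3% rose and 14.2% fell in CFPAC-1, and 11.3% rose and 16.9% fell in SW1990. *PCNA*, the sliding clamp of replication, went in CFPAC-1 from 41.4 ± 2.86 to 158 ± 20.6 RPKM, and in SW1990 from 97.7 ± 15.8 to 129 ± 9.39 (SD, n = 3). The part that the share of dividing cells has in the values of *MYC*, *HRAS*, *MTAP* and their pathways was not tested, and in bulk samples fewer cells with an RNA and less RNA per cell cannot be told apart. The count in SW1990 was 2 or 3 without GCTM-5 negative replicate 2 or 3, positive replicate 1 or 3, or CFPAC-1 negative replicate 2. It was 7 without SW1990 negative replicate 1 or CFPAC-1 positive replicate 1 or 2. Without CFPAC-1 positive replicate 3, or with each sample centred on its median, it was 8.

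Partners and regulators of MYC were mixed. Of 17, 2 rose and 5 fell in SW1990, where 11.3% of all genes rose and 16.9% fell. In CFPAC-1 5 rose and 4 fell, where 22.3% of all genes rose and 14.2% fell. *MXD4* and *MXI1*, which compete with MYC for its partner MAX, fell in both lines: *MXD4* in SW1990 from 25.6 ± 6.78 to 4.34 ± 1.59 RPKM, and in CFPAC-1 from 10.4 ± 0.782 to 3.58 ± 1.01 (SD, n = 3), and *MXI1* by 1.55 and 0.72 on the log2 scale (limma adjusted p = 0.000262 and 0.0264). *MYCBP*, a MYC-binding protein, rose in both, by 0.73 and 0.89 (limma adjusted p = 6.21e-05 and 4.08e-05). *FBXW7*, part of the ligase that marks the MYC protein for destruction, fell by 0.85 in CFPAC-1 (limma adjusted p = 0.000716), with 0.03 in SW1990 (adjusted p = 0.929). *MYCN*, a relative of *MYC*, was at 1.19 ± 0.196 and 0.815 ± 0.179 RPKM in SW1990 and was listed at 0 in all CFPAC-1 samples.

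*ARID1A* lies at chr1:27019727-27108595 on the plus strand. It was at 23.1, 19.6 and 21.7 RPKM in SW1990 GCTM-5 negative cells (21.5 ± 1.76, SD, n = 3) and at 26.6, 24.7 and 24.96 in positive cells (25.4 ± 1.05, SD, n = 3). In CFPAC-1 it was at 12.4, 14.4 and 15.7 RPKM in GCTM-5 negative cells (14.2 ± 1.68, SD, n = 3) and at 16.6, 15.5 and 15.2 in positive cells (15.8 ± 0.756, SD, n = 3). All SW1990 samples were above all CFPAC-1 samples, the positive samples of SW1990 were above the negative ones, and those of CFPAC-1 overlapped.

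*ARID1A* was 1.56-fold higher in SW1990 (log2 difference 0.64, SE 0.07, limma adjusted p = 4.50e-06). Its difference with GCTM-5 was 0.25 in SW1990 (SE 0.10, limma adjusted p = 0.0929) and 0.16 in CFPAC-1 (SE 0.10, adjusted p = 0.238), and that in SW1990 passed only when samples were centred on their medians (0.29, limma adjusted p = 0.0453) among the alternatives fitted.

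Of 25 other subunits of the BAF and PBAF complexes that were fitted, 14 were higher and 5 lower in SW1990 (median 0.41 against 0.12), where 42% of all genes were higher and 32.6% lower. With GCTM-5, 1 rose and 1 fell in SW1990, and 6 rose and none fell in CFPAC-1 (4 and 2 when samples were centred on their medians). Of all genes 11.3% rose and 16.9% fell in SW1990, and 22.3% rose and 14.2% fell in CFPAC-1. *SMARCD1*, a subunit shared by both complexes, was at 43.5 ± 2.17 RPKM in SW1990 and 20.1 ± 0.570 in CFPAC-1 GCTM-5 negative cells (SD, n = 3). *SS18* went the other way, at 19.1 ± 1.01 and 34.9 ± 1.73 RPKM. *DPF3*, a reader subunit of muscle and nerve forms of the complex, fell with GCTM-5 in SW1990 from 6.57 ± 1.59 to 1.86 ± 0.372 RPKM and rose from 2.84 ± 0.303 to 5.14 ± 1.11 in CFPAC-1.

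Counted over the members, 1 of 6 that could be tested changed with GCTM-5 in SW1990 (*MYC*, lower), where 28.2% of all 16236 genes fitted changed. In CFPAC-1 3 of 7 changed (*MTAP*, *HRAS* and *MYC*, all higher), where 36.5% of all genes did. The change differed between the lines for 3 of 5 (*NRAS*, *MTAP* and *MYC*, each with the lower change in SW1990), where it did for 26.9% of all genes (9.16% higher and 17.8% lower). Genes without reads in a line were left out of that line's counts. Of all calls in CFPAC-1 61.1% were higher, and 47.8% were when samples were centred on their medians, and for the difference between the lines these shares were 34% and 50%. The median difference over the members was -0.08 in SW1990 against -0.04 for all genes, and 0.32 in CFPAC-1 against 0.05.

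Between the lines all 8 members differed, 4 higher and 4 lower in SW1990, but so did 74.6% of all genes, and 7 of the 8 did not overlap between the lines, against 41.8%. Among GCTM-5 negative cells 7 members differed, 4 higher and 3 lower, where 68.9% of all genes differed (40.7% higher and 28.2% lower), and these 7 did not overlap, as 75.2% of all genes did not. Among positive cells all 8 differed, 4 in each direction, where 62.3% of all genes did (32.9% higher and 29.3% lower), and none of the 8 overlapped, against 63.9%. With thresholds of over 2-fold and p under 0.01, as the study names them, and the p taken here as unadjusted, the members that differed were 4, namely *CDKN2A*, *CDKN2B*, *SMAD4* and *HRAS*, against 32.5% of all genes. On those thresholds *MTAP* was the 1 member called with GCTM-5 in CFPAC-1 (9.78% of all genes were) and none was in SW1990 (12.1%).

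**Figure D3:**
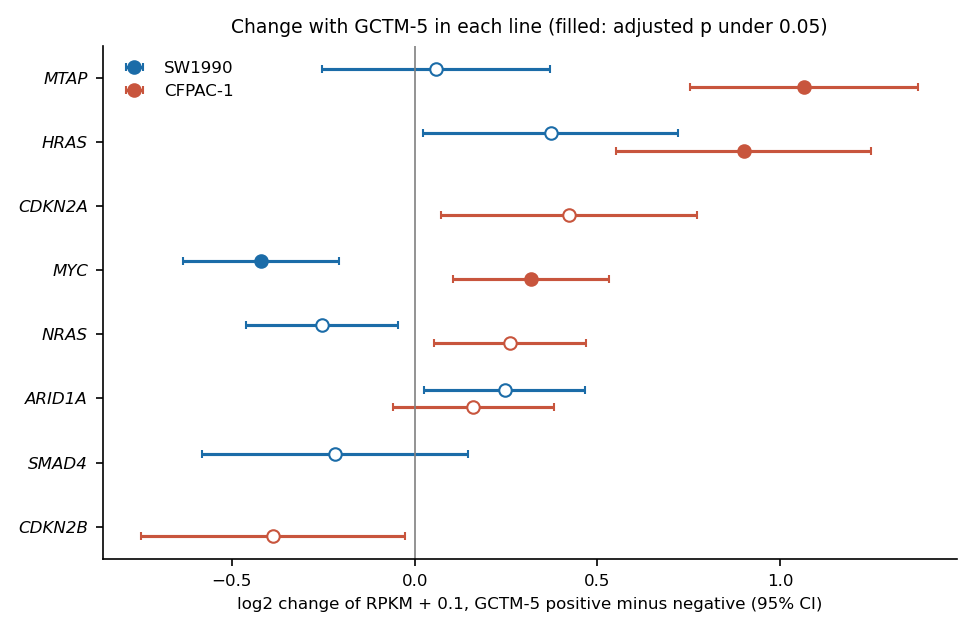
Log2 difference of RPKM + 0.1 between GCTM-5 positive and negative cells (horizontal axis) for each of the 8 genes in SW1990 (blue) and CFPAC-1 (red), with 95% confidence intervals from limma and filled points where the adjusted p is under 0.05. *MTAP*, *HRAS* and *MYC* are filled in CFPAC-1 and *MYC* alone in SW1990, on the other side of 0; genes without reads in a line have no point there.

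Of 18 other genes that are recurrently altered in pancreatic carcinoma, 17 averaged at least 0.1 RPKM and were fitted. These had reads in both lines, with 1 near exception. Of the 17, 9 were higher and 4 lower in SW1990, where 42% of all genes were higher and 32.6% lower. *TGFBR2*, *ACVR1B*, *SMARCA4*, *PBRM1* and *ARID2* are also counted in the lists of SMAD4 partners or of BAF and PBAF subunits. *RNF43*, a ligase that removes Wnt receptors from the surface, was at 10.4 ± 2.06 and 9.79 ± 0.797 RPKM in CFPAC-1 but at 0.0291 ± 0.0259 and 0.175 ± 0.103 in SW1990 (SD, n = 3). *SLIT2*, a ligand of ROBO receptors, was at 8.87 ± 1.117 RPKM in SW1990 GCTM-5 negative cells, fell to 1.43 ± 0.405 in positive cells, and was under 0.4 RPKM on average in both CFPAC-1 groups. *TGFBR2*, the TGF-beta receptor that phosphorylates its partner, fell with GCTM-5 in SW1990 by 0.70 (limma adjusted p = 0.000234) and had a difference of -0.18 in CFPAC-1 (adjusted p = 0.178). *ACVR1B*, an activin receptor, rose by 0.75 in CFPAC-1 (limma adjusted p = 0.000323), with 0.04 in SW1990 (adjusted p = 0.810).

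**Figure D4:**
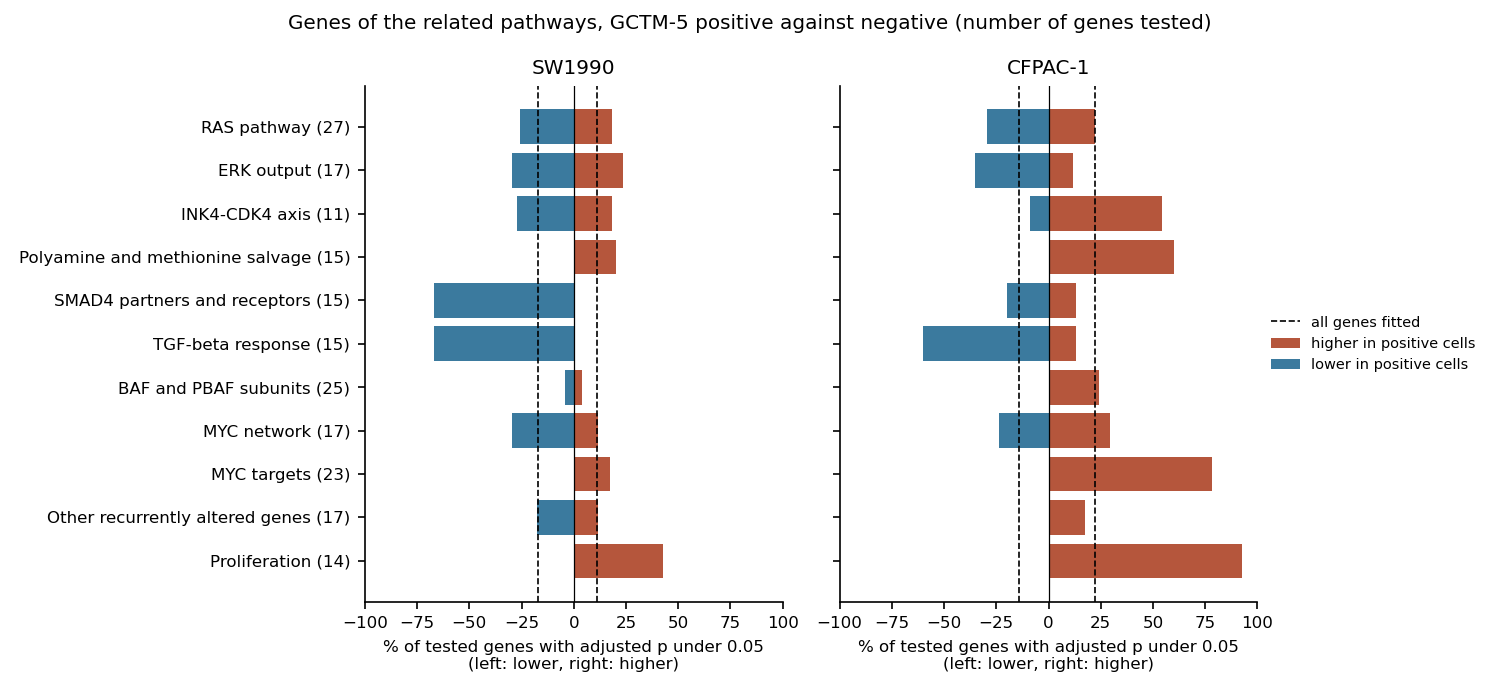
Share of the fitted genes of each pathway list (members left out, number fitted in brackets) with a limma adjusted p under 0.05 between GCTM-5 positive and negative cells, in % on the horizontal axis, lower to the left and higher to the right, for SW1990 and CFPAC-1. Dashed lines give the share over all 16236 genes fitted; MYC targets (18 of 23) and proliferation genes (13 of 14) reach far to the right in CFPAC-1, and SMAD4 partners (10 of 15) reach far to the left in SW1990.

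The genes whose pattern over the 12 samples was most like that of a member were found by Pearson's correlation of log2(RPKM + 0.1) among 13266 genes. For *CDKN2A* they were *FOXC2*, *C10orf125* and *LDHB* (r = 0.999 for each), for *CDKN2B* *GSTT1*, *HS6ST2* and *TOX3*, and for *SMAD4* *CDH11*, *ZNF71* and *MIR1184-1*. These values describe the gap between the lines, since each of these members is at 0 in one of them. For *HRAS* the closest were *USP5* (0.988), *TMEM199* and *FAM136A* (0.983 for each), and for *MTAP* they were *NR2F2* (0.987), *FAM133A* (0.982) and *DDAH1* (0.981).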

How the data were processed

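Poly(A) RNA of SW1990 and CFPAC-1 cells, sorted by GCTM-5, was sequenced in 12 samples, 3 in each of 4 groups taken from the sample labels. With QuasR, the authors mapped reads to hg19 (GRCh37) and turned reads per gene into RPKM by dividing by library size and gene length; these RPKM are what was deposited. The QuasR version, annotation, use of strand and treatment of reads with several matches are not given in the sources used here. The labels name a strand-specific library kit and the paper another kit. Reads that CDKN2A shares with overlapping transcripts, and its INK4A and ARF transcripts, are thus not separated.

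Whole reads were recovered from the RPKM through single-exon genes, for which length is known from GENCODE on GRCh37. All 19654 genes above 0 came out whole to within 0.01 read, and 3692 genes were at 0 throughout. Totals ranged from 9969697 to 26159330 reads, so that a count of 0 allows up to 3 reads per library. Such floors cover counting error only.

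Tests were made in limma 3.58.1 under R 4.3.3 on log2(RPKM + 0.1), a scale that understates the change of low genes, for the 16236 genes whose mean over all samples reached 0.1 RPKM. Means of the 4 groups were fitted with moderated variances that follow the mean, and p-values were adjusted by Benjamini-Hochberg over all genes fitted, with adjusted p under 0.05 called. All 8 members passed the filter. CDKN2A and CDKN2B were left out of the SW1990 contrast and SMAD4 out of the CFPAC-1 contrast, because both groups were at 0. The tests were checked on simulated data. Exact permutation tests (SciPy 1.17.1, two-sided) were used for single values.

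Alternatives changed the pseudocount, filter, scaling, variance trend and thresholds, fitted each line by itself, used voom on the recovered reads, added the replicate number as a block, and left out each sample in turn. Counts in the pathway lists without each sample and after centring were added after the data were seen. Genes were named by rank of adjusted p, up to 4 per list between the lines and up to 4 with GCTM-5, and near the members by position or absence of reads. The members and lists were chosen with earlier results of these data known. Promoter sequences came from RefSeq (GRCh38.p14). Levels of Y-linked genes and XIST were not used.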

Additional observations from a re-analysis of the deposited data

Results flagged for a closer look

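The change with GCTM-5 differed between SW1990 and CFPAC-1 for 3 of the 5 members that could be tested, by the interaction term of the limma fit. For *MTAP* the change in SW1990 minus that in CFPAC-1 was -1.01 on the log2 scale (adjusted p = 0.00339), with overlapping groups in SW1990 and a rise in all 3 positive samples of CFPAC-1. For *MYC* it was -0.74 (limma adjusted p = 0.00219), with a fall in SW1990 and a rise in CFPAC-1, each without overlap. For *NRAS* it was -0.51 (limma adjusted p = 0.0147), with changes of opposite sign of which neither passed by itself. The term passed for 26.9% of all genes fitted.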

How the results depend on the processing

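No member's difference changed sign under any alternative, but small medians of pathway lists in SW1990 did when 1 sample was left out. That of the INK4 and CDK4 list went from -0.09 to at most 0.06 and that of the list around *MTAP* from 0.11 to -0.08. The medians of ERK transcripts and RAS regulators went from 0.06 to as low as -0.04 and from 0.00 to as low as -0.03. They give no direction for these lists. In SW1990, where 1 member was called, 2 were called when samples were centred on their medians, quantile normalised or fitted without CFPAC-1, and 0 at over 2-fold with an unadjusted p under 0.01. In CFPAC-1, where 3 were called, 6 were called with a pseudocount of 1 and with voom on the recovered reads, 5 without the variance trend, and 1 on the 2-fold threshold. On that threshold 1 member was called for the difference of the changes and 4 between the lines. The cause was not tested, apart from the stricter threshold itself. Leaving out each sample in turn gave 1 to 2 calls in SW1990 (2 without CFPAC-1 positive replicate 3), 2 to 4 in CFPAC-1, 3 to 3 for the difference and 8 to 8 between the lines. Centring moved the median of all genes from -0.15 to 0.00 for the difference of the changes and from 0.12 to 0.00 between the lines.

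With the replicate number as a block, 1 member was called in SW1990, 3 in CFPAC-1, 3 for the difference and 8 between the lines, and no member's call changed. Samples of the same number correlated at 0.185, 0.0163 and 0.116 in SW1990 and at -0.0195, 0.00126 and -0.0593 in CFPAC-1, so that the numbers were not taken to pair samples.

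Depth limits *HRAS* most among the members with reads, at 64 to 107 reads in CFPAC-1 GCTM-5 negative libraries. For the genes at 0 it allows up to 0.0851 RPKM for *CDKN2A*, 0.0444 for *CDKN2B* and 0.0343 for *SMAD4*. With 3 samples a group, small differences such as those of *NRAS* and *ARID1A* within a line can lie on either side of the threshold, as they did above.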
